A study of Mus musculus with 6 samples.

Results

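Fibronectin, thrombospondin and the enzymes and inhibitors that cut the extracellular matrix were followed in mouse embryonic stem cells labelled as Rbbp4 knockout and in their control. The 9 genes were taken by symbol from a fixed list, namely the matrix glycoprotein genes Fn1 and Thbs1, the protease genes Mmp2, Plau and Plat, the receptor gene Plaur and the inhibitor genes Timp1, Timp2 and Timp3. All 9 were found among the 52870 genes and loci of the deposited files. They were chosen by their measured FPKM levels and by the difference between Rbbp4KO and Rbbp4F/F cells in these same libraries, so their levels and differences are given as a description and carry no p-value. 3 libraries came from Rbbp4KO cells (genotype Rbbp4-/-) and 3 from Rbbp4F/F cells, which the series title calls the control. All were embryonic stem cells of the C57BL/6 strain. The sources used here do not say how or when the gene was deleted, or whether replicate libraries are separate cultures or clones. Errors and p-values therefore cover the spread among the 6 libraries alone, which may be technical.

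The extracellular matrix is a secreted network that cells bind, remodel and degrade. Fibronectin is a large glycoprotein that cells assemble into fibrils through integrins, and thrombospondin 1 is a matricellular protein that binds cell surfaces, proteases and latent TGF-beta. Matrix metalloproteinases cut matrix proteins, and tissue inhibitors of metalloproteinases, encoded by the Timp genes, bind and block them. A parallel system turns plasminogen into the broad protease plasmin through the activators uPA (Plau) and tPA (Plat), and the receptor uPAR (Plaur) holds uPA at the cell surface. In the early mouse embryo some of these genes are known from trophoblast and parietal endoderm, whose cells invade or build matrix.

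Levels are given in FPKM, a fragment count divided by the length of the transcript and the depth of the library, so levels of different genes can be compared per length. From the spacing of low values, the depth was estimated at 26800000 to 27500000 fragments in Rbbp4KO and 25800000 to 28900000 in Rbbp4F/F libraries. At the lowest depth, 1 fragment on a 2 kb transcript was worth 0.0225 FPKM. Rbbp4 itself had 21.3, 12.7 and 11.1 FPKM in Rbbp4KO replicates 1, 2 and 3, against 58.5, 57.0 and 61.8 FPKM in Rbbp4F/F replicates 1, 2 and 3. Transcript of the targeted gene thus remained in the Rbbp4KO libraries. The value covers the whole gene, and antisense exons of Sync and Gm26722 cover 18.0% of its exonic length. The stem cell marker Pou5f1 was present in every library, with 290.2 to 503 FPKM in Rbbp4KO and 1043 to 1158 FPKM in Rbbp4F/F cells. Over 13579 tested genes, 59.1% were called, 36.7% higher and 22.5% lower in Rbbp4KO cells, where a call is a limma Benjamini-Hochberg adjusted p under 0.05 on log2(FPKM + 1). As deposited, 4978 genes were higher and 3051 lower, with a median log2 fold change of 0.17. Median-ratio scaling gave 3843 and 3992 with a median of −0.01, upper-quartile scaling 3453 and 4402 with −0.07, and rescaling to equal FPKM sums 6080 and 2380 with 0.31.

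6 of the 9 genes were called higher in Rbbp4KO cells (Thbs1, Plau, Plat, Plaur, Timp2 and Timp3), 2 were called lower (Fn1 and Mmp2) and Timp1 was not called, beside 59.1% of all tested genes called in either direction. In 6 genes all Rbbp4KO libraries lay above all Rbbp4F/F libraries, and in 3, Timp1 among them, all lay below, beside 41.3% and 25.5% of all tested genes, or 66.8% without overlap in either direction. Because the same comparison guided the choice of the genes, nothing is read from these shares. Their median log2 fold change was 1.264. Plau and Plat passed the filter on low values through the Rbbp4KO libraries alone.

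**Figure D1:**
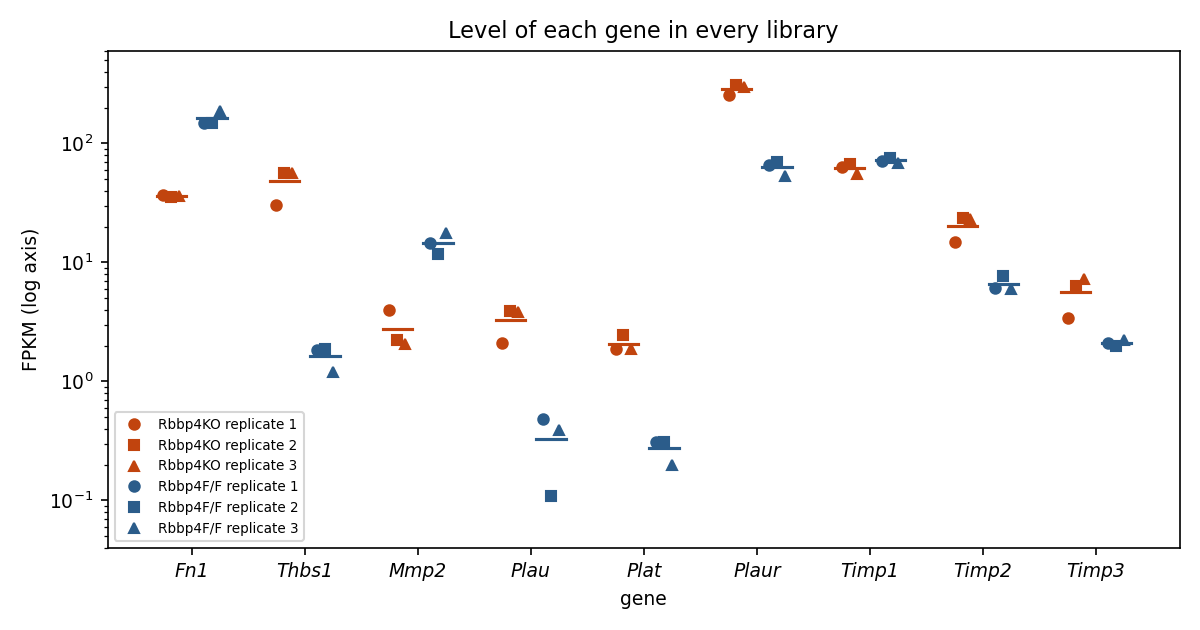
FPKM of the 9 genes on a log axis, with 1 point per library and a line at the mean of each group (n = 3 libraries each, Rbbp4KO in red and Rbbp4F/F in blue). Thbs1, Plau, Plat, Plaur, Timp2 and Timp3 lie above their Rbbp4F/F values in all 3 Rbbp4KO libraries, Fn1 and Mmp2 lie below, and Timp1 differs little.

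The 2 matrix glycoproteins moved in opposite directions. Fn1 (ENSMUSG00000026193) lies on the minus strand of GRCm38 chromosome 1, from 71585520 to 71653200, in 45 exonic blocks. It had 36.9, 35.4 and 35.8 FPKM in Rbbp4KO replicates 1, 2 and 3, against 149, 148.7 and 187.7 FPKM in Rbbp4F/F replicates 1, 2 and 3. The Rbbp4KO libraries lay close together and far below every Rbbp4F/F library. Their mean was 36.0 ± 0.727 FPKM, against 161.9 ± 22.4 FPKM in Rbbp4F/F cells (SD, n = 3 each), which is 4.49-fold lower, with a log2 fold change of −2.13 (SE 0.10). Fn1 ranked 3, 4 and 4 among the 9 levels in Rbbp4KO replicates 1, 2 and 3, and 1 in every Rbbp4F/F library. Antisense exons of Apol7d cover 2.50% of Fn1.

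Thbs1 (ENSMUSG00000040152, chromosome 2, 118111876 to 118127133, plus strand, 22 exonic blocks) had 30.2, 56.8 and 56.7 FPKM in Rbbp4KO replicates 1, 2 and 3, against 1.85, 1.86 and 1.19 FPKM in Rbbp4F/F replicates 1, 2 and 3. All Rbbp4KO libraries were far above the Rbbp4F/F libraries, and replicate 1 had the lowest of the 3 Rbbp4KO values. The means were 47.9 ± 15.3 FPKM in Rbbp4KO and 1.63 ± 0.384 FPKM in Rbbp4F/F cells, a 29.3-fold higher level and a log2 fold change of 4.17 (SE 0.26), the largest of the 9. In Rbbp4F/F cells fibronectin transcript exceeded thrombospondin 1 transcript in every library, whereas in Rbbp4KO replicates 2 and 3 Thbs1 was the more abundant and in replicate 1 Fn1 was. Antisense exons of Gm29233 cover 3.43% of Thbs1.

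Among the proteases, Mmp2, the gene of gelatinase A, went down and both plasminogen activators went up. Mmp2 (ENSMUSG00000031740, chromosome 8, 92827291 to 92853420, plus strand, 14 exonic blocks) had 3.95, 2.22 and 2.06 FPKM in Rbbp4KO replicates 1, 2 and 3, against 14.5, 11.8 and 17.7 FPKM in Rbbp4F/F replicates 1, 2 and 3. The groups did not overlap, and Rbbp4KO replicate 1 lay nearest to the Rbbp4F/F libraries. The means were 2.74 ± 1.05 FPKM in Rbbp4KO and 14.7 ± 2.98 FPKM in Rbbp4F/F cells, 5.35-fold lower, with a log2 fold change of −2.08 (SE 0.23).

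Plau (ENSMUSG00000021822, chromosome 14, 20836660 to 20843385, plus strand, 11 exonic blocks) had 2.09, 3.87 and 3.85 FPKM in Rbbp4KO replicates 1, 2 and 3, against 0.48, 0.11 and 0.39 FPKM in Rbbp4F/F replicates 1, 2 and 3. Every Rbbp4KO library was above every Rbbp4F/F library. On the longest annotated transcript these values correspond to an estimated 117.4 to 220.5 fragments per Rbbp4KO library and 5.9 to 28.7 per Rbbp4F/F library, so the Rbbp4F/F level and the 10.01-fold ratio of means are imprecise. The log2 fold change was 1.67 (SE 0.23) and, as the added 1 FPKM damps low genes, 3.06 with 0.1 FPKM added.

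Plat (ENSMUSG00000031538, chromosome 8, 22757727 to 22782844, plus strand, 13 exonic blocks) had 1.87, 2.44 and 1.89 FPKM in Rbbp4KO replicates 1, 2 and 3, against 0.31, 0.31 and 0.20 FPKM in Rbbp4F/F replicates 1, 2 and 3. Again the groups did not overlap. The means were 2.07 ± 0.323 FPKM in Rbbp4KO and 0.273 ± 0.0635 FPKM in Rbbp4F/F cells, 7.56-fold higher, with a log2 fold change of 1.264 (SE 0.14) that became 2.54 with 0.1 FPKM added. By mean level, Plaur, Timp1, Thbs1 and Fn1 led the 9 genes in Rbbp4KO cells, and Fn1, Timp1, Plaur and Mmp2 in Rbbp4F/F cells, with Timp2 and Timp3 next in both. Both activators stayed at or near the low end in both groups. In Rbbp4KO cells their library values overlapped those of neighbouring genes in the order, Plau those of Timp3 and Mmp2, and Plat those of Mmp2. Among the higher levels, Timp1 overlapped Thbs1 and Thbs1 overlapped Fn1. In Rbbp4F/F cells the neighbours that overlapped were Timp1 and Plaur, and Plau and Plat.

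The uPA receptor gene was the most abundant of the 9 in all Rbbp4KO libraries. Plaur (ENSMUSG00000046223, chromosome 7, 24462484 to 24475968, plus strand, 6 exonic blocks) had 256.3, 309.1 and 300.1 FPKM in Rbbp4KO replicates 1, 2 and 3, against 65.6, 69.97 and 53.6 FPKM in Rbbp4F/F replicates 1, 2 and 3. All 3 Rbbp4KO libraries stood clear of the Rbbp4F/F libraries. The means were 288.5 ± 28.3 FPKM in Rbbp4KO and 63.1 ± 8.46 FPKM in Rbbp4F/F cells, 4.57-fold higher, with a log2 fold change of 2.18 (SE 0.12). The receptor transcript outnumbered that of its ligand uPA in every library. The ratio of Plaur to Plau FPKM was 123, 79.9 and 78.0 in Rbbp4KO replicates 1, 2 and 3, against 137, 636 and 138 in Rbbp4F/F replicates 1, 2 and 3, where the high value of replicate 2 rests on its 0.11 FPKM of Plau. With 0.1 FPKM added to both genes the groups overlapped in this ratio.

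Of the 9 genes, 4 had a promoter window in the RefSeq table for GRCm38.p6 (Plaur, Timp1, Timp2 and Timp3). The 100 bases before the start are shown for Plaur, which was called higher, and for Timp1, which was not called, because these windows hold no annotated exon. Both read 5′ to 3′ on the plus strand, chr7:24462383-24462482 for Plaur and chrX:20870066-20870165 for Timp1, and capitals mark matches on either strand to the AP-1 site TGANTCA or the GC box GGGCGG.
Plaur: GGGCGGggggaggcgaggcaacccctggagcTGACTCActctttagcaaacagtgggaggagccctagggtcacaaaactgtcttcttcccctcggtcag
Timp1: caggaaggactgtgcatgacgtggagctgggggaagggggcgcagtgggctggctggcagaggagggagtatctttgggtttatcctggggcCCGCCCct
Over 250 bases before the start, the Plaur window held 1 AP-1 match, whose first base is 69 bases before the start, and 3 GC box matches that lie side by side, of which 2 overlap by a base. The Timp1, Timp2 and Timp3 windows held no match to TGANTCA and 1 GC box each. Of the 100 bases before the start, 95 for Timp2 and 40 for Timp3 lie in annotated exons. The TEAD site GGAATG, searched on both strands, matched once in Timp1, 247 bases before the start, and in none of the other windows. Of all 32851 promoter windows of that length, 6.75% held the AP-1 letters, 12.6% the TEAD letters and 32.7% the GC box. The matches describe the sequence and are not measured binding sites.

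The 3 inhibitor genes did not move together. Timp1 (ENSMUSG00000001131, chromosome X, 20870166 to 20874735, plus strand, 6 exonic blocks) had 63.6, 67.3 and 55.2 FPKM in Rbbp4KO replicates 1, 2 and 3, against 71.5, 75.6 and 68.5 FPKM in Rbbp4F/F replicates 1, 2 and 3. The Rbbp4KO values lay just below the Rbbp4F/F values without overlap. The means were 62.0 ± 6.19 FPKM in Rbbp4KO and 71.9 ± 3.57 FPKM in Rbbp4F/F cells, with a log2 fold change of −0.21 (SE 0.09), which was not called. Timp1 was called lower with upper-quartile scaling (−0.48) and median-ratio scaling (−0.40). With equal FPKM sums it had −0.06 and was not called.

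Timp2 (ENSMUSG00000017466, chromosome 11, 118301069 to 118355740, 6 exonic blocks, minus strand), whose protein both inhibits MMP2 and takes part in its activation by MT1-MMP, had 14.8, 23.4 and 23.0 FPKM in Rbbp4KO replicates 1, 2 and 3, against 6.04, 7.65 and 5.99 FPKM in Rbbp4F/F replicates 1, 2 and 3. All Rbbp4KO libraries were above all Rbbp4F/F libraries, with replicate 1 the lowest of the 3. The means were 20.4 ± 4.897 FPKM in Rbbp4KO and 6.56 ± 0.944 FPKM in Rbbp4F/F cells, 3.11-fold higher, with a log2 fold change of 1.48 (SE 0.20).

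Timp3 (ENSMUSG00000020044, chromosome 10, 86300372 to 86349506, plus strand, 8 exonic blocks) encodes an inhibitor that stays bound to the matrix. It had 3.44, 6.38 and 7.19 FPKM in Rbbp4KO replicates 1, 2 and 3, against 2.11, 1.98 and 2.23 FPKM in Rbbp4F/F replicates 1, 2 and 3. Replicate 1 of Rbbp4KO lay between the Rbbp4F/F libraries and the other two. The means were 5.67 ± 1.97 FPKM in Rbbp4KO and 2.11 ± 0.125 FPKM in Rbbp4F/F cells, 2.69-fold higher, with a log2 fold change of 1.05 (SE 0.24). Antisense exons of Syn3 cover 21.3% of Timp3, and reads there cannot be told apart without strand. Syn3 was listed at 0.44, 0.27 and 0.36 FPKM in Rbbp4KO replicates 1, 2 and 3, against 0.15, 0.14 and 0.22 FPKM in Rbbp4F/F replicates 1, 2 and 3.

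Within a library, ratios of FPKM do not depend on the scaling between libraries. The summed level of Timp1, Timp2 and Timp3 over that of Mmp2 was 20.7, 43.7 and 41.5 in Rbbp4KO replicates 1, 2 and 3, against 5.48, 7.24 and 4.33 in Rbbp4F/F replicates 1, 2 and 3. It averaged 35.3 ± 12.7 in Rbbp4KO and 5.68 ± 1.47 in Rbbp4F/F cells (SD, n = 3 each), 6.21-fold higher without overlap. The summed inhibitor level itself was 81.8, 97.1 and 85.4 FPKM in Rbbp4KO replicates 1, 2 and 3, against 79.6, 85.2 and 76.7 FPKM in Rbbp4F/F replicates 1, 2 and 3, and these overlapped, so most of the difference in the ratio lay in Mmp2. Timp1 made up 77.7%, 69.3% and 64.6% of the 3 inhibitors in Rbbp4KO replicates 1, 2 and 3, against 89.8%, 88.7% and 89.3% in Rbbp4F/F replicates 1, 2 and 3. The inhibitor pool was thus mostly Timp1 in both groups, with a larger part of Timp2 and Timp3 in Rbbp4KO cells.

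**Figure D2:**
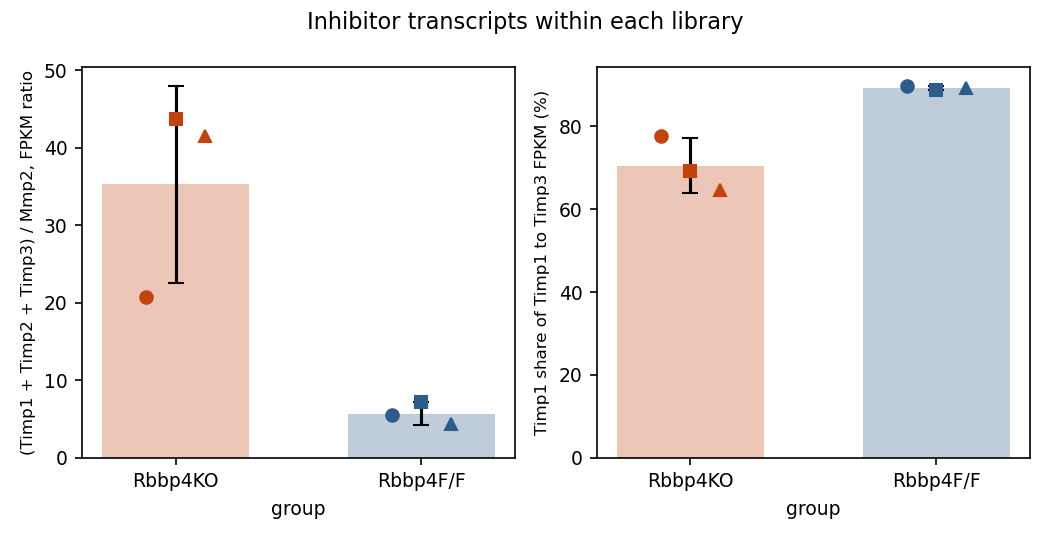
Left, the summed FPKM of Timp1, Timp2 and Timp3 over the FPKM of Mmp2. Right, Timp1 as a percentage of the 3 inhibitors. Bars are means, error bars the SD of 3 libraries and points the libraries, with Rbbp4KO before Rbbp4F/F. The ratio averaged 35.3 in Rbbp4KO and 5.68 in Rbbp4F/F cells, and the Timp1 share was lower in all 3 Rbbp4KO libraries.

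The 8 called genes were also called, in the same direction, under each of the 3 other scalings, with log2 fold changes of 3.95 to 4.29 for Thbs1 and −2.39 to −1.97 for Fn1. Because the genes were chosen by this difference, these calls show only the effect of the scaling.

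**Figure D3:**
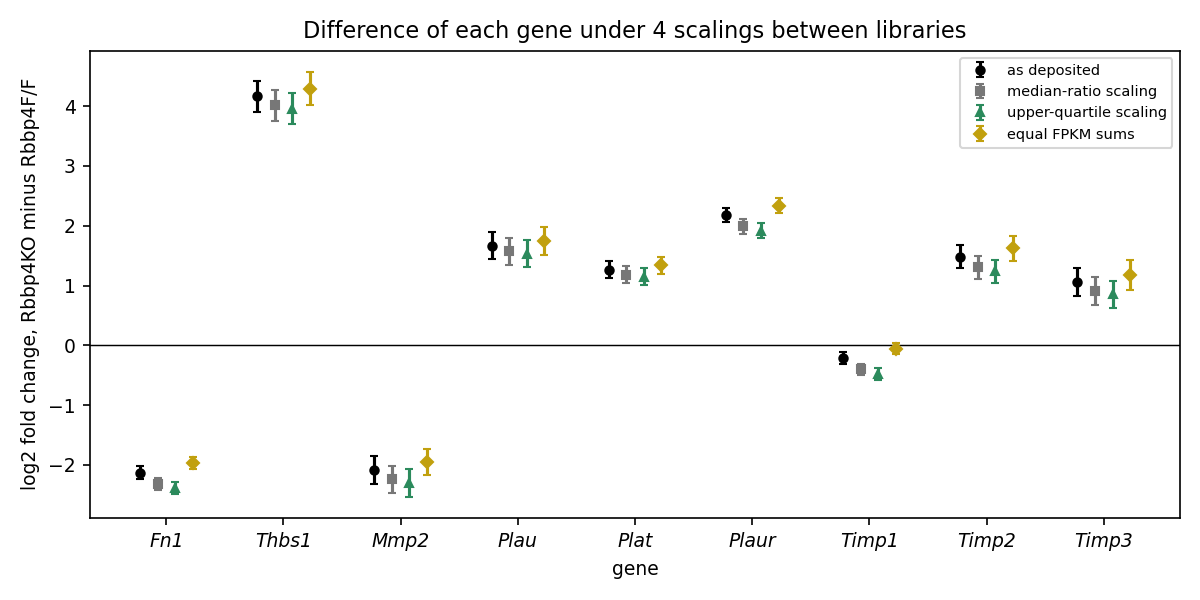
Log2 fold change on log2(FPKM + 1), Rbbp4KO minus Rbbp4F/F, of the 9 genes as deposited and under 3 other scalings between libraries; error bars are the standard error of the limma fit (n = 3 libraries each). All 9 genes keep their sign under each scaling, and Timp1 lies nearest to 0, between −0.48 and −0.06.

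Rbbp4KO replicate 1, the library with the most Rbbp4 transcript of its group, lay nearer to the Rbbp4F/F mean than the mean of replicates 2 and 3 in all 9 genes. This order is not particular to the 9 genes. Over all tested genes, replicate 1 correlated with the Rbbp4F/F libraries at 0.905 to 0.914 (Pearson, log2(FPKM + 1)). Replicate 2 did so at 0.890 to 0.896 and replicate 3 at 0.884 to 0.888. For Timp1 the single Rbbp4KO library nearest to the Rbbp4F/F libraries was replicate 2. For Thbs1 replicate 1 differed from the Rbbp4F/F mean by 3.58 on the log2(FPKM + 1) scale, against 4.46 for replicates 2 and 3. The differences were 0.52 and 1.32 for Timp3, 1.07 and 1.69 for Timp2, and −1.65 and −2.30 for Mmp2. For Fn1 they were −2.10 and −2.14, nearly the same. Without replicate 1 the same 6 genes were called higher and the same 2 lower, beside 5592 and 3587 of all 14030 genes then tested. Whether the remaining Rbbp4 level has a part in this order was not tested.

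**Figure D4:**
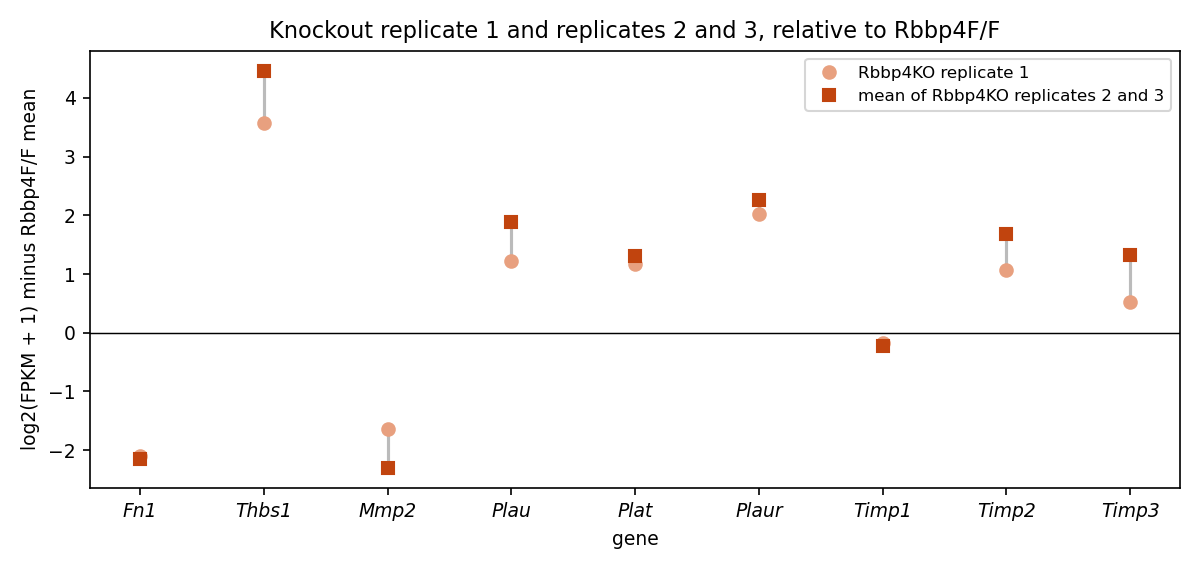
Difference from the Rbbp4F/F mean on the log2(FPKM + 1) scale for Rbbp4KO replicate 1 (circles) and for the mean of Rbbp4KO replicates 2 and 3 (squares). Circles lie closer to 0 than squares for each of the 9 genes, by least for Fn1, with −2.10 and −2.14, and Timp1.

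Marker genes of other cell types were read beside these values. Since the libraries are bulk samples, fewer cells of a type and less RNA per cell cannot be told apart. Beside the counts below, 36.7% of all tested genes were called higher and 22.5% lower. All Rbbp4KO libraries lay above all Rbbp4F/F libraries in 41.3% of tested genes and below in 25.5%. The marker counts without overlap include untested genes. Of 12 trophoblast markers 11 were tested and 9 called higher, while Eomes and Elf5 were not called. Cdx2, Gata3 and Plac1, and Gata4 and Esam of the lists below, passed the filter on low values through the Rbbp4KO libraries alone. Eomes had a mean of 2.88 FPKM in Rbbp4KO and 2.90 FPKM in Rbbp4F/F cells. The 12 summed to 2223 to 4010 FPKM in Rbbp4KO and 123 to 184 FPKM in Rbbp4F/F libraries, most of it Krt8 and Krt18. Prl3d1, a marker of giant cells, was listed at 0 in all 6 libraries. Of 10 primitive and parietal endoderm markers 4 were tested and 3 called higher. In 7 of the 10, among them Gata4 and the untested Gata6, all Rbbp4KO libraries lay above all Rbbp4F/F libraries. Sox17 and Afp overlapped between the groups, and Ttr was listed at 0. The sums were 22.8 to 23.97 FPKM in Rbbp4KO and 12.3 to 14.1 FPKM in Rbbp4F/F libraries. Their largest part was Cited1, with means of 13.3 FPKM in Rbbp4KO and 9.90 FPKM in Rbbp4F/F cells. The 8 pluripotency markers, mostly Dppa5a and Pou5f1, summed to 1390 to 2175 FPKM in Rbbp4KO and 4705 to 4855 FPKM in Rbbp4F/F libraries. Of these, 7 were called lower, and in the same 7 all Rbbp4KO libraries lay below all Rbbp4F/F libraries. Nanog had means of 4.31 FPKM in Rbbp4KO and 79.2 FPKM in Rbbp4F/F cells. Zfp42, which was not called, had 31.9 and 35.1 FPKM. The 12 fibroblast markers summed to 13.7 to 16.3 FPKM in Rbbp4KO and 16.2 to 23.1 FPKM in Rbbp4F/F libraries, mostly Thy1, which was called lower, and Twist1, which was called higher. These were the 2 tested, and in 7 of the 12 all Rbbp4KO libraries lay above all Rbbp4F/F libraries and in 2 below. Among the untested, Col3a1 had 0.44, 0.29 and 0.48 FPKM in Rbbp4KO replicates 1, 2 and 3, against 0.08, 0.03 and 0.01 FPKM in Rbbp4F/F replicates 1, 2 and 3, and Dcn was at 0.59 to 0.98 FPKM in Rbbp4KO and 0.12 to 0.37 FPKM in Rbbp4F/F libraries. The collagen gene Col1a1, abundant in fibroblasts that are used as feeder cells, was at 0.36 to 0.52 FPKM in Rbbp4KO and 0.48 to 0.54 FPKM in Rbbp4F/F libraries. The 8 mesoderm markers summed to 39.7 to 88.5 FPKM in Rbbp4KO and 10.8 to 12.2 FPKM in Rbbp4F/F libraries. Most of this was Hand1, which is also on the trophoblast list. Of the 8, 2 were tested, and Hand1 was called higher and Kdr lower. All Rbbp4KO libraries lay above all Rbbp4F/F libraries in 3 of the 8 and below in 2, Kdr and Tbx6. The 6 endothelial markers, mostly Tek, summed to 7.48 to 10.2 FPKM in Rbbp4KO and 16.2 to 19.6 FPKM in Rbbp4F/F libraries. Of the 6, 3 were tested, and Esam was called higher, Tek lower and Vwf neither. For 6 markers of macrophages and blood cells, nearly all Cd68, sums ran from 76.9 to 84.5 FPKM in Rbbp4KO and from 40.6 to 41.6 FPKM in Rbbp4F/F libraries. Only Cd68 was tested, and it was called higher. In 3 of the 6, Cd68, Csf1r and Fcer1g, all Rbbp4KO libraries lay above all Rbbp4F/F libraries. Ptprc, Adgre1 and Tyrobp overlapped between the groups and reached at most 0.34 FPKM. The part of these markers in the levels of the 9 genes was not tested.

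Around the 9 genes, 127 other genes of matrix adhesion and proteolysis were read from the same fit. 74 passed the filter, of which 36 (48.6%) were called higher, 19 (25.7%) lower and 19 neither, against 36.7% and 22.5% of all tested genes. 6 of the 74 passed the filter through Rbbp4KO libraries alone and 2 through Rbbp4F/F libraries alone. The median log2 fold change of the 74 was 0.52, beside 0.17 for all tested genes. The lists were chosen with earlier results of these data known, so nothing is read from these shares or medians.

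**Figure D5:**
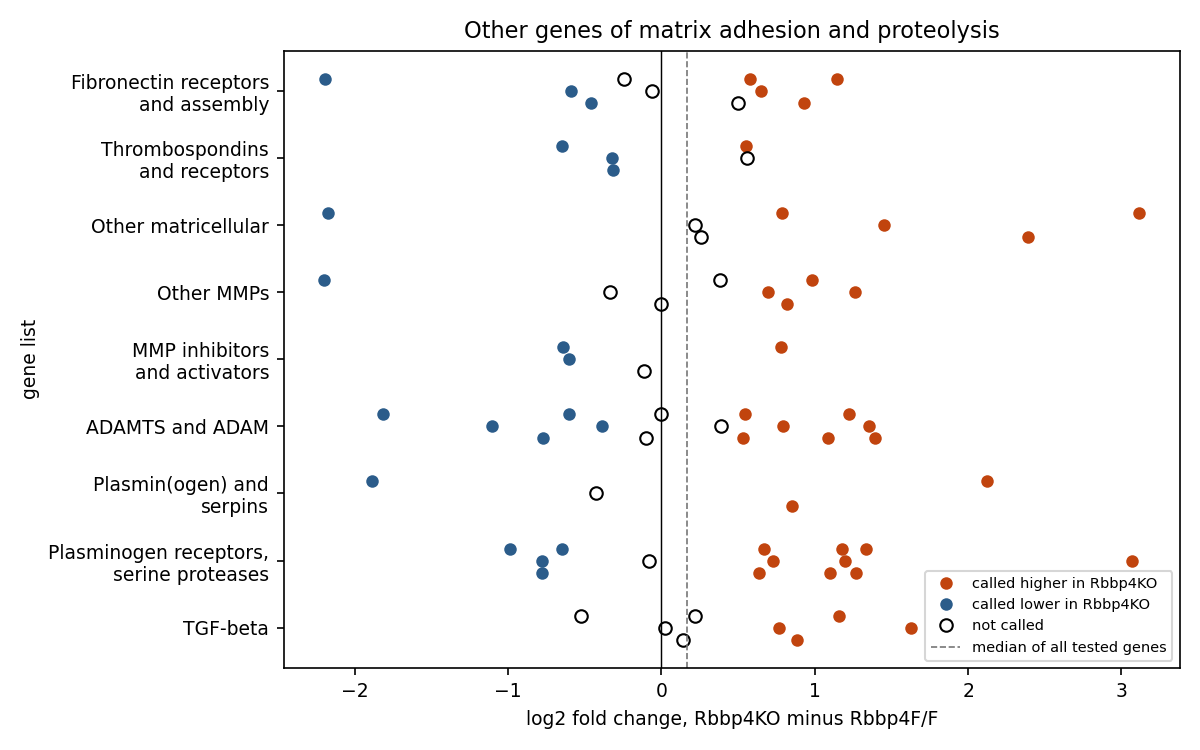
Log2 fold change on log2(FPKM + 1), Rbbp4KO minus Rbbp4F/F, of the tested genes of 9 lists, with 1 point per gene, red where called higher, blue where called lower and open where not called. The dashed line is the median of all tested genes, 0.17; most lists hold calls in both directions.

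Of 14 fibronectin receptor and matrix assembly genes, 10 were tested, 4 rose and 3 fell. Fbln1, which encodes the fibronectin-binding protein fibulin 1, had 5.69 ± 0.719 FPKM in Rbbp4KO and 29.6 ± 2.65 FPKM in Rbbp4F/F cells and fell with Fn1 (log2 fold change −2.19, SE 0.12, limma adjusted p = 4.27e-05). Itga5, the alpha subunit of the main fibronectin receptor, had 33.4 ± 0.843 FPKM in Rbbp4KO and 17.1 ± 0.7995 FPKM in Rbbp4F/F cells and rose (0.93, SE 0.08, limma adjusted p = 1.55e-04). Sdc4, the gene of a syndecan that assists it, rose by 0.65 (SE 0.09, limma adjusted p = 8.32e-04). Over the alternatives 3 to 5 genes of this list were higher and 2 to 5 lower, with 5 lower under upper-quartile scaling.

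Of 9 thrombospondin relatives, receptors and partners, 5 were tested, 1 rose and 3 fell, with 2 higher without Rbbp4F/F replicate 2 and 2 higher and 1 lower with equal FPKM sums. Cd47, the gene of a thrombospondin 1 receptor, had 9.10 ± 0.776 FPKM in Rbbp4KO and 5.91 ± 0.893 FPKM in Rbbp4F/F cells (0.55, SE 0.14, limma adjusted p = 0.0124). Its call was lost without Rbbp4KO replicate 2 (0.49), with upper-quartile scaling (0.32) and with median-ratio scaling (0.38), and over all alternatives its limma adjusted p ranged between 0.00547 and 0.0940. The endocytic receptor gene Lrp1 had 7.72 ± 0.374 FPKM in Rbbp4KO and 12.7 ± 0.946 FPKM in Rbbp4F/F cells and fell (−0.65, SE 0.11, limma adjusted p = 0.00203), and Calr fell by a smaller amount (−0.31, SE 0.06, limma adjusted p = 0.00482), a call that was lost with equal FPKM sums (−0.15). Thbs2 was at up to 0.25 FPKM and Thbs4 at up to 0.50 FPKM in any library. Thbs3 had 15.0 ± 2.25 FPKM in Rbbp4KO and 10.3 ± 4.03 FPKM in Rbbp4F/F cells. Its groups overlapped and it was not called (0.56, SE 0.25). In every Rbbp4F/F library it was above Thbs1. Antisense exons of Mtx1 cover 6.59% of Thbs3.

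Of 17 other matricellular genes, 7 were tested, 4 rose and 1 fell. Ccn1, which encodes CYR61, had 222.6, 279 and 265 FPKM in Rbbp4KO replicates 1, 2 and 3, against 30.5, 33.1 and 23.0 FPKM in Rbbp4F/F replicates 1, 2 and 3 (log2 fold change 3.11, SE 0.15, limma adjusted p = 3.33e-05). Ccn2, which encodes CTGF, had 134 ± 19.4 FPKM in Rbbp4KO and 24.8 ± 3.98 FPKM in Rbbp4F/F cells (2.39, SE 0.15, limma adjusted p = 5.78e-05), with antisense exons of Gm15270 over 23.2% of its length. Spp1, the osteopontin gene, fell to 70.8 ± 12.7 FPKM in Rbbp4KO cells, against 320.5 ± 12.1 FPKM in Rbbp4F/F cells (−2.18, SE 0.12, limma adjusted p = 4.63e-05), and exons of Gm42793 on the same strand cover 18.8% of it.

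Of 21 other matrix metalloproteinase genes, 8 were tested, 4 rose and 1 fell. Mmp14, whose product MT1-MMP activates pro-MMP2 at the cell surface, had 34.9, 53.0 and 59.2 FPKM in Rbbp4KO replicates 1, 2 and 3, against 21.0, 19.1 and 18.0 FPKM in Rbbp4F/F replicates 1, 2 and 3, so that it rose where Mmp2 fell (1.264, SE 0.19, limma adjusted p = 0.00140). Mmp9, the other gelatinase gene, rose to 4.40 ± 0.437 FPKM in Rbbp4KO cells, against 1.75 ± 0.427 FPKM in Rbbp4F/F cells (0.98, SE 0.16, limma adjusted p = 0.00199). Mmp11 fell to 4.57 ± 1.24 FPKM in Rbbp4KO cells, against 24.1 ± 0.851 FPKM in Rbbp4F/F cells (−2.20, SE 0.17, limma adjusted p = 1.07e-04), with antisense exons of Chchd10 over 5.58% of its length. 2 genes of this list were lower without Rbbp4KO replicate 1 and with upper-quartile scaling. Of 7 further inhibitors and activators, 4 were tested, 1 rose and 2 fell. The proprotein convertase gene Furin rose by 0.78 (limma adjusted p = 4.02e-04), and Bsg, which encodes the MMP inducer basigin (−0.64, limma adjusted p = 3.57e-04), and the membrane-anchored inhibitor gene Reck (−0.60, limma adjusted p = 0.0123) fell. Timp4 was at up to 0.03 FPKM in any library.

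Of 27 ADAMTS and ADAM genes, 15 were tested, 7 rose and 5 fell, and 3 fell without Rbbp4KO replicate 2 or 3, without Rbbp4F/F replicate 1 or 2, and with equal FPKM sums. Adam9 had 16.6 ± 2.62 FPKM in Rbbp4KO and 5.85 ± 0.562 FPKM in Rbbp4F/F cells (1.35, SE 0.14, limma adjusted p = 3.45e-04). Adam8 rose by 1.39 (limma adjusted p = 5.58e-04) and Adamts7, whose product cleaves COMP and thrombospondin 1, by 1.22 (limma adjusted p = 6.05e-04).

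Of 8 genes of plasminogen and of inhibitors of plasmin and its activators, 4 were tested, 2 rose and 1 fell, and 2 fell without Rbbp4KO replicate 3 and with median-ratio or upper-quartile scaling. Serpine2, which encodes protease nexin 1, rose to 20.9 ± 3.63 FPKM in Rbbp4KO cells, against 11.2 ± 2.44 FPKM in Rbbp4F/F cells (0.85, SE 0.19, limma adjusted p = 0.00721). A2m, the gene of the broad protease inhibitor alpha-2-macroglobulin, was listed at 0.01, 0 and 0 FPKM in Rbbp4KO replicates 1, 2 and 3, against 2.69, 2.66 and 2.77 FPKM in Rbbp4F/F replicates 1, 2 and 3, and fell (limma adjusted p = 5.97e-05). It passed the filter through the Rbbp4F/F libraries alone.

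Of 14 plasminogen receptor and pericellular serine protease genes, all were tested, 9 rose and 4 fell, Lrp1 among them. F3, which encodes tissue factor, had 26.6, 42.7 and 48.4 FPKM in Rbbp4KO replicates 1, 2 and 3, against 4.15, 3.46 and 3.39 FPKM in Rbbp4F/F replicates 1, 2 and 3 (3.07, SE 0.22, limma adjusted p = 8.10e-05). The matriptase gene St14 had 124 ± 5.78 FPKM in Rbbp4KO and 57.2 ± 1.96 FPKM in Rbbp4F/F cells (1.10, SE 0.07, limma adjusted p = 5.97e-05). Prss8, which encodes its partner prostasin, rose by 1.33 (SE 0.11, limma adjusted p = 1.16e-04), with antisense exons of Kat8 over 6.59% of its length.

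Of 11 genes of TGF-beta ligands, latency proteins and receptors, 8 were tested, 4 rose and 4 were not called. Tgfbr2, the type II receptor gene, had 3.26, 5.14 and 4.09 FPKM in Rbbp4KO replicates 1, 2 and 3, against 0.50, 0.60 and 0.89 FPKM in Rbbp4F/F replicates 1, 2 and 3 (1.63, SE 0.18, limma adjusted p = 4.02e-04). It and the coreceptor gene Tgfbr3 (1.16, limma adjusted p = 7.94e-04) passed the filter through the Rbbp4KO libraries alone. Eng, which encodes the coreceptor endoglin, rose to 14.1 ± 1.17 FPKM in Rbbp4KO cells, against 7.16 ± 0.176 FPKM in Rbbp4F/F cells (0.88, SE 0.10, limma adjusted p = 5.18e-04). 1 gene was called lower without Rbbp4KO replicate 1, without Rbbp4F/F replicate 3, with the replicate block and with median-ratio or upper-quartile scaling.

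For each of the 9 genes, the protein-coding genes with the most similar profile were found among 12198, by the Euclidean distance of centred log2(FPKM + 1) values over the 6 libraries. The 2 nearest to Thbs1 were Flnc, which encodes filamin C (distance 0.38), and Stmn4 (0.52), and the nearest to Plaur was the integrin gene Itga3 (0.09), followed by Pea15a (0.15). Those nearest to Fn1 were Slc22a18 (0.15) and Ndrg2 (0.20), and those nearest to Mmp2 were Insig1 (0.20) and Phyhip (0.24). Plau lay nearest to the tropomyosin gene Tpm2 and to Fzd6 (both 0.16) and Plat to Slc25a10 (0.13), which has antisense exons over 6.60% of its length, and Sccpdh (0.15). Timp1 lay nearest to Tor3a (0.07) and Psmd2 (0.09), Timp2 to Ackr3 (0.16) and Wnt7a (0.20) and Timp3 to Ube3a (0.10), which has antisense exons over 27.3% of its length, and the integrin gene Itgav (0.12), which has them over 5.90%. Itga3 had 158.3, 192 and 193.5 FPKM in Rbbp4KO replicates 1, 2 and 3, against 42.9, 43.3 and 32.4 FPKM in Rbbp4F/F replicates 1, 2 and 3. All 6 libraries enter each distance, so it holds the group difference as well as the spread within groups.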

How the data were processed

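Each deposited file gives a gene identifier and an FPKM value per gene, without a header. The unit FPKM was inferred from the authors' values, which are not whole numbers and sum to 697933 to 800146 per library. HISAT2 2.1.0, RSEM, FastQC and DESeq 1.26.0 are listed, with the build GRCm38.p6 and no roles, per the submitters' processing notes. Annotation and strand use: not given in the sources used here. 2 of 52872 rows per file hold text in place of an identifier and were left out. Symbols and coordinates came from GENCODE M21 (GRCm38).

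Depth was estimated from the steps of low values of single-transcript genes of 500 to 2500 bases. With 260 to 280 bases taken off each length, 76.5% to 82.6% of values fell within 0.15 of a whole step.

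The comparison used log2(FPKM + 1) of the 13579 genes that reached 1 FPKM in 3 or more libraries. Moderated two-sided tests on group came from limma 3.58.1 (R 4.3.3, trended prior), with Benjamini-Hochberg adjustment and a threshold of 0.05, and were first tested on simulated data. The members and the gene lists were chosen with earlier results of these data known. Profiles were compared by Euclidean distance, and promoter windows came from RefSeq. The text names the 9 genes, Rbbp4, up to 3 called genes of each list with the smallest p, and the 2 protein-coding genes of most similar profile. Other genes it names were chosen after their values were seen. 1 gene that this rule names is not reported here. Exon overlap with other genes is given where it covers over 5% of a named gene. It was not looked up for the cell type markers, Pou5f1 among them, or for Syn3. Alternatives were other scalings, pseudocount, filters, a replicate block and each library left out in turn, where genes needed 1 FPKM in 2 libraries. Equal FPKM sums were added after seeing the data.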

Additional observations from a re-analysis of the deposited data

How the results depend on the processing

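Of the 9 genes, 6 were higher and 2 lower with a pseudocount of 0.1, without a filter, with the replicate block, with equal FPKM sums and with each library left out. With median-ratio or upper-quartile scaling 6 were higher and 3, Timp1 included, lower. Since the 9 genes were chosen by this comparison, these counts show only how the calls depend on the settings. With a filter of 5 FPKM, 6 of the 9 were tested and 3 were higher and 2 lower, and of the other pathway genes 12 were lower instead of 19, because fewer genes were tested. Not all changes in the counts of single lists under the alternatives are given. The replicate block (replicate number as a term) gave 4872 higher and 2907 lower genes over all tested genes, against 4978 and 3051 without it. Deviations of libraries with the same replicate number correlated at −0.001, −0.009 and 0.049, and not every library correlated best with its own number, so the numbers were not taken as pairs. Levels under about 0.5 FPKM, such as Plau and Plat in Rbbp4F/F cells, rest on few fragments.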

Other observations

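Plasminogen itself, the substrate of both activators, was hardly present as transcript, as Plg was listed at 0.01, 0.04 and 0.03 FPKM in Rbbp4KO replicates 1, 2 and 3, against 0, 0 and 0 FPKM in Rbbp4F/F replicates 1, 2 and 3, with antisense exons of Slc22a3 over 11.3% of its length. The collagenase and stromelysin genes Mmp1a and Mmp3 were listed at 0 in all 6 libraries, as were Mmp27 and Mmp7, which has antisense exons of AV064505 over 11.5% of its length. Mmp10 and Mmp13 were listed at 0 in all Rbbp4F/F libraries and at up to 0.08 and 0.11 FPKM in Rbbp4KO libraries.

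Further genes of the lists, singled out after their values were seen, included Ccn4, which encodes a matricellular protein of the same family as Ccn1 and had 1.33, 2.26 and 2.54 FPKM in Rbbp4KO replicates 1, 2 and 3, against 0.13, 0.12 and 0.04 FPKM in Rbbp4F/F replicates 1, 2 and 3. Adamts14, a procollagen N-proteinase gene, fell to 0.873 ± 0.22 FPKM in Rbbp4KO cells, against 3.01 ± 0.0306 FPKM in Rbbp4F/F cells (limma adjusted p = 6.67e-04). The plasminogen receptor genes Anxa2 and S100a10, whose products form a tetramer, rose by 1.27 and 1.18 (limma adjusted p = 0.00284 and 2.95e-04). Eno1, the most abundant gene of the same list and also a plasminogen receptor besides its role in glycolysis, fell to 1102 ± 239.3 FPKM in Rbbp4KO cells, against 2152 ± 53.1 FPKM in Rbbp4F/F cells (−0.99, limma adjusted p = 0.00140).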
